A study of Mus musculus with 14 samples.

Results

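The genes described here are 34 mouse genes of cholesterol and fatty acid synthesis, chosen by name from knowledge of the pathways. The choice was made with earlier results of these data known. The genes were matched by symbol to the gene IDs of the deposited count table. All 34 were found among its 56691 gene IDs, and all 34 were among the 21619 genes that passed the filter on low counts. They were divided by role into a sterol arm of 18 genes, a fatty acid arm of 11 genes, and 5 genes that control or carry sterols. RNA came from whole paws of newborn mice, so that skin, muscle, cartilage, bone, nerve and blood were measured together. The 4 groups were wild-type (WT) paws on postnatal day 0 (P0 WT, n = 4), Krt9-/- paws on day 0 (P0 Krt9 null, n = 2), WT paws on day 3 (P3 WT, n = 5) and Krt9-/- paws on day 3 (P3 Krt9 null, n = 3). Krt9 encodes keratin 9, a structural protein of palm and sole epidermis. Both sexes are labelled within each group, and litters are numbered. The labels give the allele only as -/-, name no strain, and do not say that each library is 1 animal, so p-values measure the spread between these libraries, which may in part be technical. In bulk tissue, fewer cells of a type and less RNA per cell cannot be told apart.

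Cholesterol is built from acetyl-CoA through mevalonate, isoprenoid diphosphates and squalene, which is closed into lanosterol and then trimmed to cholesterol. Fatty acids are built from the same acetyl-CoA by a carboxylase and a synthase, and are then lengthened by elongases and given double bonds by desaturases. The SREBP transcription factors switch on both arms: they are held in the endoplasmic reticulum with the escort protein SCAP and the anchor INSIG when sterols are plentiful, and are released to the nucleus when sterols fall. In skin, both kinds of lipid go into the barrier between dead cell layers, and sebaceous glands secrete a lipid mixture of their own.

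Libraries held 28947715 to 41004173 counts. Krt9 stood at 2.09 to 7.61 CPM (the count of a gene scaled to a common library total, with TMM factors) in P0 WT and at 5.32 and 6.08 CPM in P0 Krt9 null paws, so that on P0 it did not check the labels. On P3 it stood at 32.9 to 83.0 CPM in WT and at 7.74 to 25.2 CPM in Krt9 null paws, with no overlap. The highest of these Krt9 null values was that of replicate 1. No gene tested was called lower in Krt9 null paws on P3, so Krt9 was not called either. The table's columns form 2 alphabetical runs, named A (8 libraries) and B (6 libraries) here, and both hold every group. No label calls these runs a batch. Run B holds P0 WT replicate 4, P0 Krt9 null replicate 2, P3 WT replicates 1 and 5, and P3 Krt9 null replicates 1 and 3. P0 WT replicate 4 is labelled female, yet Xist stood at 0.181 CPM there against at least 783 CPM in the other libraries labelled female, and the Y-linked Ddx3y stood at 0.155 CPM. Values per library are given below in the order of the replicate numbers, which have no order in time.

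The data do not measure promoters, so 3 promoters are shown only as examples. Hmgcs1 was taken as the only member with a match to the sterol regulatory element searched for. Mvd of the sterol arm and Elovl6 of the fatty acid arm were taken for a small p in a day contrast. The sequences are the 250 bases before the RefSeq transcription start in GRCm38.p6, another build than the GRCm39 that the submitters' processing notes list, on the gene's strand. They lie at chr13:119690101-119690350 on the plus strand (Hmgcs1), chr8:122443423-122443672 on the minus strand (Mvd) and chr3:129532136-129532385 on the plus strand (Elovl6). Capitals mark TCACNCCAC and CCAAT on either strand, the second reading ATTGG on the opposite one.
Hmgcs1: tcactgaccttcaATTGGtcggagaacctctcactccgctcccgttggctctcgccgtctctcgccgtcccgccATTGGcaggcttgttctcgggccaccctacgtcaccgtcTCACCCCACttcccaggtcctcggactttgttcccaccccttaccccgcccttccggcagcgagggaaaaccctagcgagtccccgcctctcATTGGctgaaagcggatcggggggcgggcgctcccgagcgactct
Mvd: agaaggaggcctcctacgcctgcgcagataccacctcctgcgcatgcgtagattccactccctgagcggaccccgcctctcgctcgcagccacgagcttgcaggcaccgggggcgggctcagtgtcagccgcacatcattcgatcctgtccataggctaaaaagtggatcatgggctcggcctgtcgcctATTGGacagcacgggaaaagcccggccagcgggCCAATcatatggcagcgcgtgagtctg
Elovl6: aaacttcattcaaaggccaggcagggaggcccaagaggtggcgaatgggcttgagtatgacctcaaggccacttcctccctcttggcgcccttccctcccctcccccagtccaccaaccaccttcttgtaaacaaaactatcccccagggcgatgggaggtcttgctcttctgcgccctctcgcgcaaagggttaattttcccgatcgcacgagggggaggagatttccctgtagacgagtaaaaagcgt
The Hmgcs1 stretch holds TCACNCCAC with its first base at -137 and 3 CCAAT matches. The Mvd stretch holds 2 CCAAT matches, at -60 on the minus and -27 on the plus strand of the gene. Neither motif occurs in the Elovl6 stretch. The 250 bases before a start of Dhcr7, a sterol arm gene, were also marked and are not printed here. They hold neither motif, although a window at another Dhcr7 start holds CCAAT. The printed examples therefore do not show a difference between the arms. RefSeq windows of 250 bases before and 50 bases after the start were found for 27 of the 34 genes (none for Fads1, Fdft1, Fdps, Scd1, Scd2, Sqle and Stard4). CCAAT, the letters bound by NF-Y, occurred in 22 of the 27 genes (81.5%) against 41.1% of all 27025 genes with such windows, and in 14 of 15 sterol and 5 of 8 fatty acid arm genes. GGGCGG, the GC box, also occurred in 22 of 27 (81.5%) against 38.2% of all genes, with 14 of 15 and 4 of 8 in the 2 arms. CACGTG, the E-box, occurred in 6 of 27 (22.2%) against 8.09%. TCACNCCAC occurred in 1 of 27 (3.7%) against 1.44%. All 4 motifs were searched on both strands, none is contained in another, and a match is a run of letters, not a bound site.

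Levels between genes were compared only per length, as mean CPM per kilobase of annotated exon in P3 WT paws. The highest were both desaturases of stearoyl-CoA, Scd2 at 76.2 and Scd1 at 38.2, followed by Hmgcs1 (36.1), which makes HMG-CoA, and Acly (32.4), which makes cytosolic acetyl-CoA from citrate. Srebf2 (23.8), the gene of the sterol-directed SREBP, stood above Srebf1 (13.3). Fasn, the fatty acid synthase, stood at 16.2, and the carboxylase Acaca at 3.69. Fdps, which makes farnesyl diphosphate, was lowest at 0.664, and it shares 26.7% of its exon bases with Gm43738 on the same strand. Exon bases are shared with another gene by 13 members, 10 of them with a gene on the opposite strand. Whether the counting used strand is not stated in the sources at hand, so reads of such pairs may not be separated.

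The mean of log2(CPM + 1) over each arm gave 1 value per library. For the sterol arm it was 5.23, 5.35, 5.17 and 4.72 in P0 WT, 5.02 and 4.70 in P0 Krt9 null, 5.40, 5.30, 5.26, 5.09 and 5.32 in P3 WT and 5.95, 5.33 and 5.82 in P3 Krt9 null paws. The P3 Krt9 null replicates 1 and 3 were above every other library, whereas replicate 2 lay within the P3 WT range. For the fatty acid arm it was 6.06, 6.17, 6.13 and 5.82 in P0 WT, 6.04 and 5.74 in P0 Krt9 null, 6.47, 6.76, 6.44, 6.36 and 6.35 in P3 WT and 6.68, 6.69 and 6.34 in P3 Krt9 null paws. Here every P3 library was above every P0 library, and the genotypes overlapped on P3. The sterol minus fatty acid difference within a library ran from -0.82 to -1.10 on P0 and from -1.02 to -1.46 in P3 WT paws. In P3 Krt9 null paws it was -0.72, -1.36 and -0.51, so replicates 1 and 3 stood above all other libraries and replicate 2 did not. The spread within groups, pooled, was 0.234 (SD) for the sterol arm and 0.178 for the fatty acid arm on this log2 scale.

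**Figure D1:**
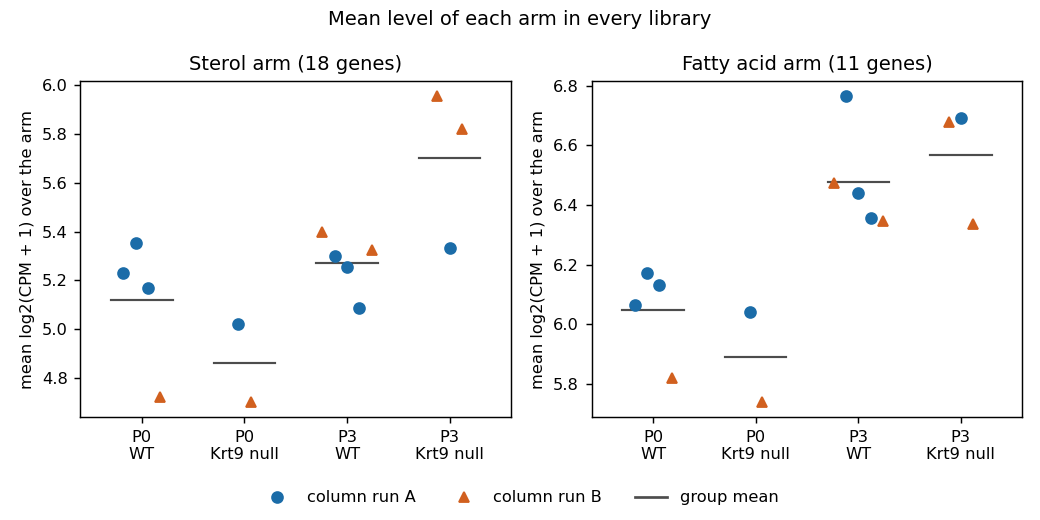
Mean log2(CPM + 1) of the 18 sterol genes (left) and the 11 fatty acid genes (right) in each of the 14 libraries, by group, with circles for column run A, triangles for run B and lines for group means. In the fatty acid arm all P3 libraries lie above all P0 libraries, and in the sterol arm P3 Krt9 null replicates 1 and 3 (5.95 and 5.82) lie above every other library.

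The day comparisons ask how the 2 arms differed between P0 and P3. In WT paws 6 of the 34 genes were called, a share near that of all genes tested (3581 of 21619). Of these 6, Elovl6, Scd1, Fads1 and Elovl5 lengthen or desaturate fatty acids. Of the 34 genes, 5 were called higher on P3, where 8.49% of all genes tested were, and 1 was called lower, against 8.07% of all genes. The sterol arm had 2 of 18 called, both higher, and a median log2 fold change of 0.07. The fatty acid arm had 3 of 11 called higher and 1 lower, and a median of 0.24. The median of all genes tested was -0.01. Groups did not overlap for 6 genes higher and 2 lower, against 8.96% and 7.73% of all genes. The sterol median was -0.02 within column run A and 0.61 within run B, and the fatty acid median was 0.25 and 0.37.

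Elovl6 lengthens palmitate to stearate. It stood at 57.0, 52.9, 49.1 and 39.0 CPM in P0 WT, 63.8 and 42.3 in P0 Krt9 null, 124, 159, 95.5, 84.7 and 110.3 in P3 WT, and 173, 136 and 113 in P3 Krt9 null paws. All P3 libraries exceeded all P0 libraries in both genotypes, and the WT difference was 2.24-fold (log2 fold change 1.17, SE 0.157, adjusted p = 0.000682). Scd1, the delta-9 desaturase that makes oleate, stood at 51.5, 50.02, 52.1 and 41.1 CPM in P0 WT, 54.0 and 49.5 in P0 Krt9 null, 238, 311, 121, 118 and 146 in P3 WT, and 254, 285 and 87.0 in P3 Krt9 null paws. P0 libraries lay close together, P3 libraries were widely spread in both genotypes, and the days did not overlap. The WT difference of Scd1 was 3.62-fold (log2 fold change 1.86, SE 0.342, adjusted p = 0.00484). Fads1, the delta-5 desaturase of polyunsaturated fatty acids, stood at 46.6, 45.2, 49.4 and 46.8 CPM in P0 WT, 44.8 and 46.2 in P0 Krt9 null, 51.8, 77.4, 69.8, 74.3 and 59.5 in P3 WT, and 43.7, 73.4 and 42.2 in P3 Krt9 null paws. The WT days did not overlap, whereas P3 Krt9 null replicates 1 and 3 lay just below all P0 libraries and replicate 2 far above them. The WT difference of Fads1 was 1.42-fold (log2 fold change 0.51, SE 0.163, adjusted p = 0.0461). Elovl5, the elongase of polyunsaturated fatty acids, was the only member called lower (log2 fold change -0.43, SE 0.138, adjusted p = 0.0473), from 88.1 to 134 CPM on P0 to 76.5 to 83.3 CPM on P3, with no overlap.

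Elovl6, Scd1 and Acat2 were called in WT paws in every one of 14 fits that each left out 1 library. Fads1 was called in 5 of these fits (adjusted p 0.0091 to 0.111), Elovl5 in 4 (0.0305 to 0.292) and Nsdhl in 3 (0.0112 to 0.157). The Elovl5 difference was -0.23 without P0 WT replicate 3. The number of members called in WT paws ran from 3 to 8 over these fits, and was 3 without P0 WT replicate 1 or 3 and without P3 WT replicate 2, 3 or 4. Among the other fatty acid genes, Fads2, the delta-6 desaturase, differed by 0.64 (adjusted p = 0.0873), Acss2, which activates acetate, by 0.35, Scd2 by 0.24, Me1, the NADPH-giving malic enzyme, by 0.22, Acaca by 0.11, Acly by 0.11 and Fasn by -0.04. None of these 7 was called.

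In the sterol arm of WT paws, Acat2, which joins 2 acetyl-CoA at the head of the pathway, rose. It stood at 21.6, 28.6, 25.8 and 25.6 CPM in P0 WT, 29.0 and 25.6 in P0 Krt9 null, 38.3, 40.2, 39.4, 34.4 and 43.5 in P3 WT, and 56.0, 38.4 and 53.6 in P3 Krt9 null paws. The days did not overlap in either genotype, and the WT difference was 1.54-fold (log2 fold change 0.62, SE 0.132, adjusted p = 0.00714). Nsdhl, a sterol dehydrogenase that takes part in removing the C4 methyl groups, stood at 12.6, 18.8, 14.6 and 12.99 CPM in P0 WT, 17.0 and 13.7 in P0 Krt9 null, 19.5, 23.5, 21.6, 19.3 and 18.6 in P3 WT, and 30.4, 22.2 and 28.4 in P3 Krt9 null paws. It was 1.38-fold higher on P3 in WT paws (log2 fold change 0.46, SE 0.149, adjusted p = 0.0483), although P0 WT replicate 2 lay above P3 WT replicate 5. The remaining 16 sterol genes were not called, with differences from -0.27 (Tm7sf2, a sterol reductase) to 0.45 (Idi1, the isomerase of isopentenyl diphosphate).

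**Figure D2:**
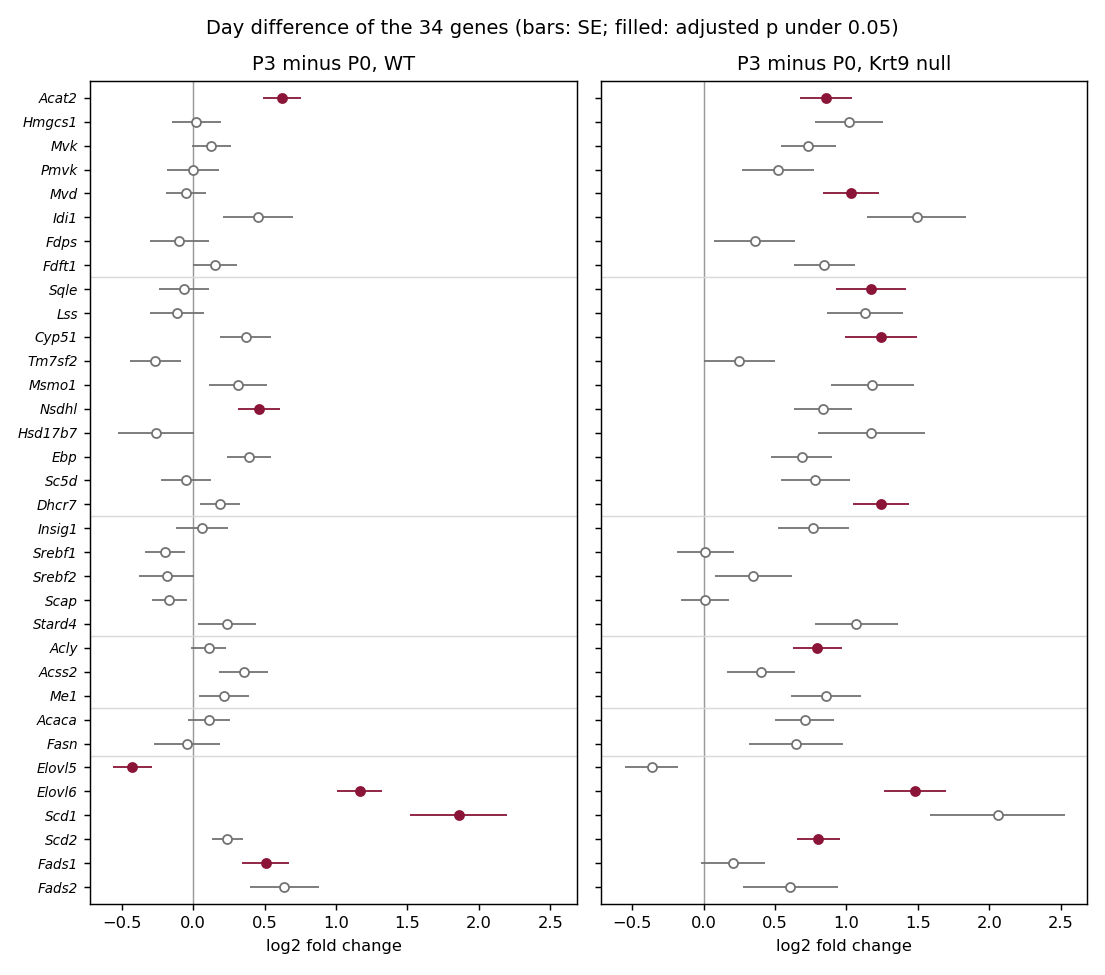
Log2 fold change of P3 against P0 for each of the 34 genes in WT (left) and Krt9 null paws (right), with SE bars and filled points for adjusted p under 0.05. In WT paws Scd1 (1.86) and Elovl6 (1.17) lie farthest to the right, and in Krt9 null paws all 18 sterol genes lie to the right of 0.

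In Krt9 null paws 8 of the 34 genes were called, all higher on P3, where 0.338% of all genes tested were called higher. All 18 sterol genes had positive differences (5 called, median 0.94), as had 10 of 11 fatty acid genes (3 called, median 0.71), beside a median of -0.01 over all genes. Groups did not overlap for 22 of the 34 genes, all higher, against 11.8% of all genes. These groups hold only 2 and 3 libraries. Within column run A, 1 library against 1, the sterol median was 0.40 and the fatty acid median 0.51. Within run B they were 1.22 and 0.85. Without the sex term 1 of the 34 was called, and with only the 2 groups compared in the fit 0 were. With a term for column run 18 were called, against 4.95% of all genes. That term takes the same shift between runs on both days.

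Dhcr7, which makes cholesterol in a last step of the pathway, stood at 50.8, 44.2, 51.2 and 29.9 CPM in P0 WT, 45.6 and 25.4 in P0 Krt9 null, 62.0, 54.8, 54.0, 49.0 and 38.7 in P3 WT, and 101, 56.1 and 76.8 in P3 Krt9 null paws. All 3 P3 Krt9 null libraries lay above both P0 Krt9 null libraries, and replicates 1 and 3 were the highest of the 14. The day difference in Krt9 null paws was 2.37-fold (log2 fold change 1.24, SE 0.198, adjusted p = 0.0189). Mvd, the decarboxylase that ends the mevalonate steps, stood at 30.5, 34.8, 30.9 and 20.4 CPM in P0 WT, 23.5 and 16.1 in P0 Krt9 null, 27.3, 29.4, 30.2, 28.5 and 26.6 in P3 WT, and 43.2, 37.4 and 37.3 in P3 Krt9 null paws. Both P0 Krt9 null libraries were low beside 3 of the 4 P0 WT libraries, and all P3 Krt9 null libraries were above both. The difference of Mvd was 2.04-fold (log2 fold change 1.03, SE 0.197, adjusted p = 0.0323). Cyp51, the lanosterol demethylase, stood at 72.9, 84.4, 66.8 and 48.1 CPM in P0 WT, 60.9 and 47.4 in P0 Krt9 null, 102, 87.3, 78.0, 72.2 and 104 in P3 WT, and 157, 89.9 and 129 in P3 Krt9 null paws. Its P3 Krt9 null replicates 1 and 3 were the highest of all 14 libraries, and its day difference was 2.36-fold (log2 fold change 1.24, SE 0.251, adjusted p = 0.0376). Acat2 (log2 fold change 0.86, SE 0.182, adjusted p = 0.0437) and Sqle, the squalene epoxidase (log2 fold change 1.17, SE 0.246, adjusted p = 0.0421), were also called.

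In the fatty acid arm of Krt9 null paws, Elovl6 was called at 2.79-fold (log2 fold change 1.48, SE 0.219, adjusted p = 0.0133). Scd2, a second stearoyl-CoA desaturase, stood at 382, 382, 332 and 295 CPM in P0 WT, 320.3 and 248 in P0 Krt9 null, 413, 459.8, 428, 388 and 394 in P3 WT, and 559, 430.3 and 463 in P3 Krt9 null paws. Every P3 library was above every P0 library, and the Krt9 null difference was 1.74-fold (log2 fold change 0.80, SE 0.153, adjusted p = 0.0318). Acly stood at 159, 168, 169 and 128 CPM in P0 WT, 165 and 103 in P0 Krt9 null, 180.3, 177, 175, 154 and 168 in P3 WT, and 257, 182 and 233 in P3 Krt9 null paws. All 3 P3 Krt9 null libraries were above the P3 WT libraries, and the day difference in Krt9 null paws was 1.74-fold (log2 fold change 0.80, SE 0.171, adjusted p = 0.0462). Scd1 had the largest difference (2.06, SE 0.473) but was not called (adjusted p = 0.073). Of the rest, Me1 differed by 0.85, Acaca by 0.71, Fasn by 0.65, Fads2 by 0.61, Acss2 by 0.40, Fads1 by 0.21 and Elovl5 by -0.37.

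No member was called in Krt9 null paws in all 14 fits that each left out 1 library, and the number called ran from 0 to 20. It was 0 without P0 Krt9 null replicate 2 and 0 without P3 Krt9 null replicate 1. It was 2 without P0 WT replicate 1, 2 without P3 WT replicate 2, 3 without P3 Krt9 null replicate 3, 3 without P3 WT replicate 4, and 4 without either P0 Krt9 null replicate 1 or P0 WT replicate 3. It was 5 without P3 WT replicate 1. It was 13 without P0 WT replicate 2 and 20 without P3 Krt9 null replicate 2. Dhcr7 and Elovl6 were called in 12 of the 14 fits, Mvd in 9, Scd2 in 7, Cyp51 in 6, Sqle in 5, Acly in 4 and Acat2 in 3.

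**Figure D3:**
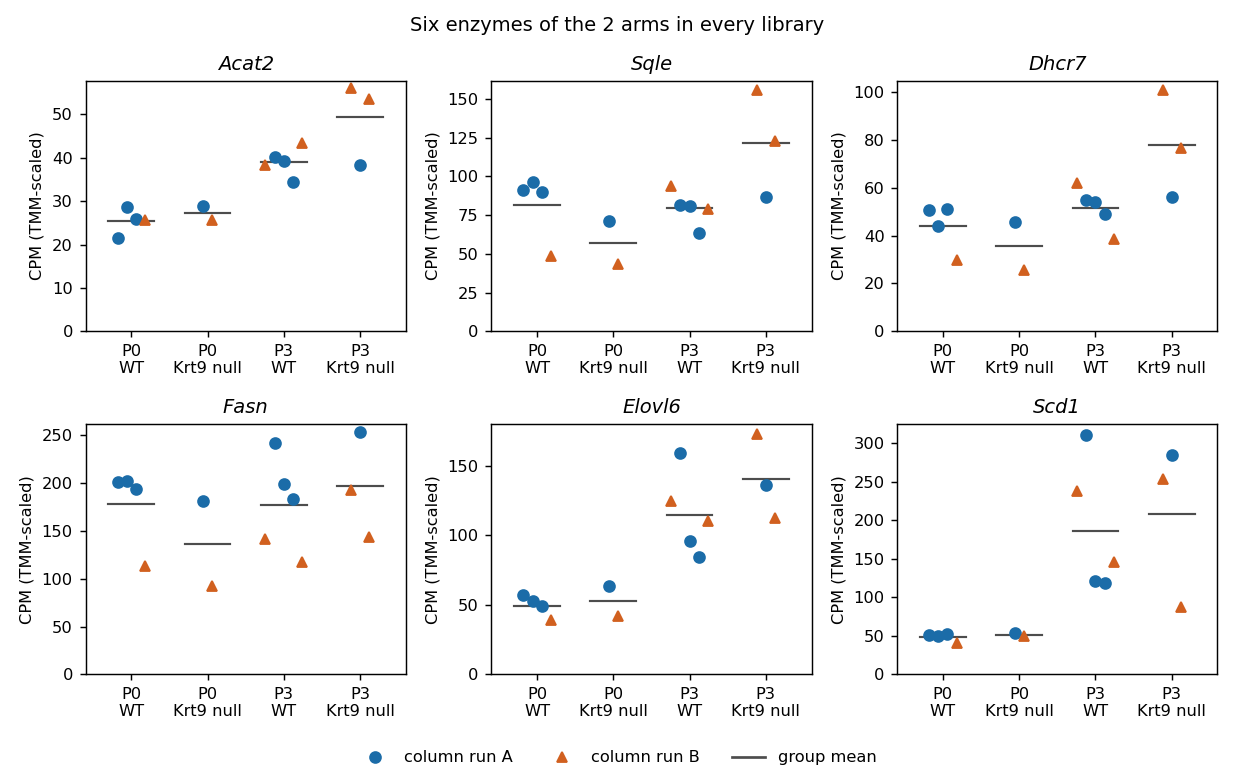
CPM of 6 enzymes in each of the 14 libraries, by group, with circles for column run A, triangles for run B and lines for group means, and axes from 0. Elovl6 and Scd1 are higher in every P3 library than in every P0 library, whereas Sqle and Dhcr7 in P3 Krt9 null paws range from 87.0 to 156 and from 56.1 to 101 CPM.

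The genotype comparisons ask which genes differed between Krt9 null and WT paws of the same day. On P0 none of the 34 was called by edgeR or by DESeq2, against 0.00463% of all genes called higher by edgeR. An unadjusted p under 0.05 was reached by 3 genes, against 5.96% of all genes, and all 3 (Mvd, Lss and Sqle) were sterol genes with lower values in Krt9 null paws. Differences were negative for 14 of 18 sterol genes (median -0.34) and 9 of 11 fatty acid genes (median -0.13), beside a median of -0.0039 over all genes. For Mvd, the values above gave a null-to-WT ratio of 0.674 (log2 fold change -0.57, SE 0.184, adjusted p = 0.831). Lss, which closes oxidosqualene to lanosterol, stood at 38.3, 52.8, 39.3 and 21.8 CPM in P0 WT, 28.3 and 22.3 in P0 Krt9 null, 37.6, 44.3, 37.1, 33.0 and 29.3 in P3 WT, and 69.2, 47.1 and 45.2 in P3 Krt9 null paws. Its P0 WT replicate 4 was lower than both P0 Krt9 null libraries, and the ratio was 0.659 (log2 fold change -0.60, SE 0.253, adjusted p = 0.831). In the fatty acid arm the smallest unadjusted p belonged to Scd2 (log2 fold change -0.30, SE 0.143, adjusted p = 0.831) and Acaca, the carboxylase that makes malonyl-CoA (log2 fold change -0.39, SE 0.191, adjusted p = 0.836). Acaca stood at 61.5, 66.5, 58.4 and 41.7 CPM in P0 WT, 54.8 and 33.9 in P0 Krt9 null, 56.9, 73.6, 71.9, 59.9 and 53.0 in P3 WT, and 75.7, 73.2 and 57.9 in P3 Krt9 null paws, with P0 WT replicate 4 between the 2 P0 Krt9 null libraries.

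The P0 values followed column run. Both run B libraries, 1 of each genotype, lay below all 4 run A libraries of that day for 25 of the 34 genes (13 sterol, 8 fatty acid and 4 of the regulators and carrier), against 18.9% of all genes tested, and above them for none. Run B held 1 of 2 Krt9 null and 1 of 4 WT libraries. The sterol median of the genotype difference was -0.28 within run A and -0.02 within run B, and the fatty acid median -0.09 and -0.11. Without P0 WT replicate 4, the library with neither sex marker, the sterol median over both runs was -0.42 and the fatty acid median -0.17, and still no member was called.

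On P3 the differences pointed the other way, and none was called. All 18 sterol genes were higher in Krt9 null paws (median 0.51, against -0.01 over all genes), as were 8 of 11 fatty acid genes (median 0.26). By edgeR 0 of the 34 passed, against 0.00463% of all genes called higher, and DESeq2 called 1, Dhcr7. An unadjusted p under 0.05 was reached by 16 of 18 sterol genes, 4 of 11 fatty acid genes and Stard4, 21 of 34 in all, against 6.67% of all genes. Groups did not overlap for 3 genes, Mvd, Lss and Acly, all higher in Krt9 null paws, against 1.30% of all genes.

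Dhcr7 had the smallest p (log2 fold change 0.71, SE 0.151, adjusted p = 0.427), and its Krt9 null replicate 2 (56.1 CPM) lay below P3 WT replicate 1 (62.0 CPM). Sqle stood at 91.1, 96.2, 90.2 and 48.5 CPM in P0 WT, 71.1 and 43.3 in P0 Krt9 null, 93.7, 81.8, 80.8, 63.7 and 79.1 in P3 WT, and 156, 87.0 and 123 in P3 Krt9 null paws. Its Krt9 null replicates 1 and 3 were above all WT libraries and replicate 2 was within them (log2 fold change 0.70, SE 0.188, adjusted p = 0.694). In the fatty acid arm the null-to-WT ratio of Acly was 1.37 (log2 fold change 0.45, SE 0.133, adjusted p = 0.694). Me1 stood at 44.3, 42.6, 48.9 and 34.9 CPM in P0 WT, 42.5 and 35.6 in P0 Krt9 null, 66.4, 48.2, 44.2, 38.8 and 54.9 in P3 WT, and 91.7, 42.1 and 73.4 in P3 Krt9 null paws, and Krt9 null replicate 2 again lay within the WT range (log2 fold change 0.51, SE 0.191, adjusted p = 0.705). Opposite signs were seen for Fads1 (-0.35), Fads2 (-0.30) and Elovl5 (-0.04), none called. Without P3 Krt9 null replicate 2, which is the only run A library of its group, 5 of the 34 were called, and the fatty acid median was 0.052 in place of 0.26.

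The sterol median on P3 was 0.14 within run A, where 15 of 18 genes were positive, and 0.53 within run B, where all 18 were. The fatty acid median was 0.14 and 0.26, with 10 and 7 of 11 genes positive. On P3 run B lay above run A without overlap for 9 genes (Pmvk, Fdft1, Cyp51, Msmo1, Hsd17b7, Ebp, Sc5d, Stard4 and Me1), against 15.0% of all genes, and below it for 5 (Srebf1, Srebf2, Scap, Fads1 and Fads2), against 15.3%. Run B held 2 of 3 Krt9 null and 2 of 5 WT libraries. With column run as a term in the fit, the sterol median was 0.45 and the fatty acid median 0.28, and no member was called. That term takes 1 shift between runs for both days. Yet run B lay below run A without overlap for 13 sterol genes on P0 and above it for 7 on P3. The term therefore cannot take up a run difference that changes with day.

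**Figure D4:**
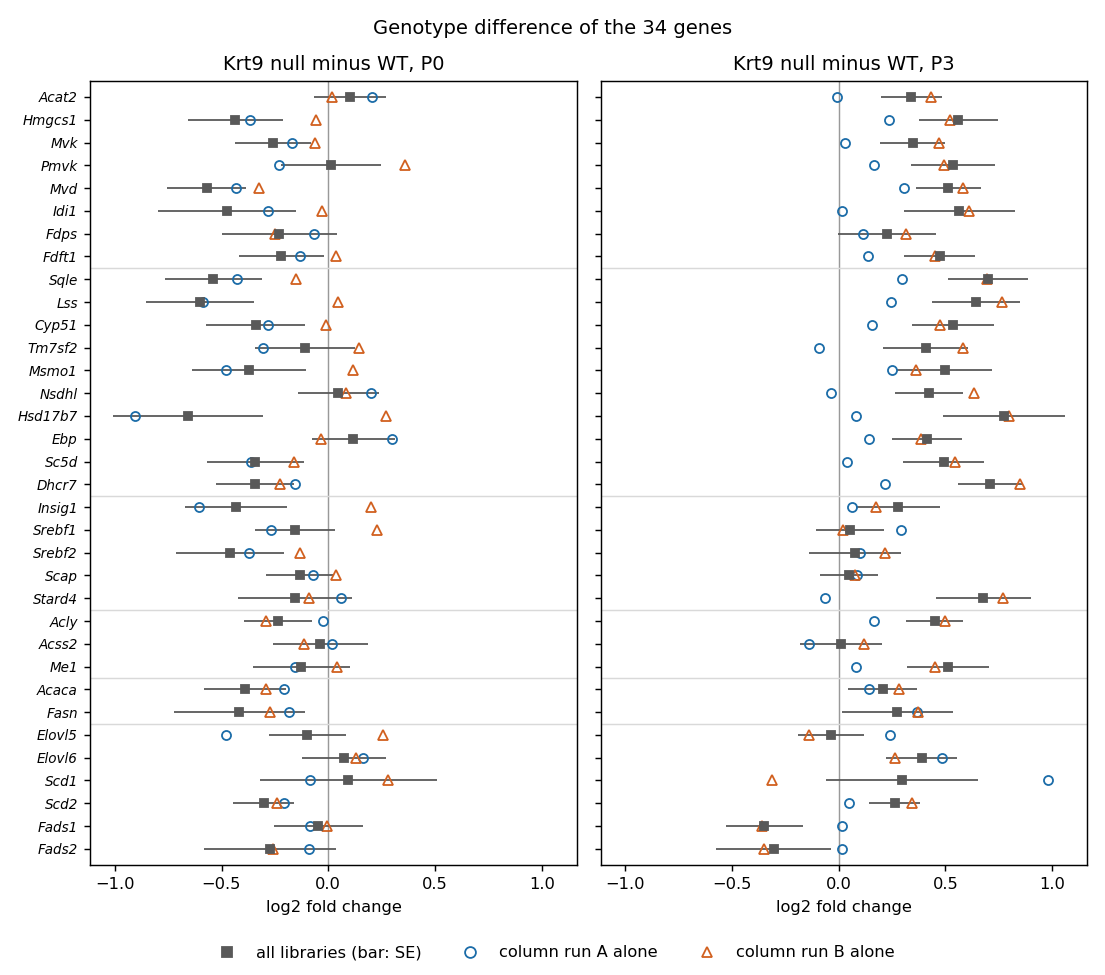
Log2 fold change of Krt9 null against WT paws on P0 (left) and P3 (right) for each of the 34 genes: squares with SE bars from all libraries, open circles from column run A alone and open triangles from run B alone. On P3 all 18 sterol genes lie to the right of 0, with a median of 0.14 in run A and 0.53 in run B.

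The interaction, the genotype difference on P3 minus that on P0, is also the day difference in Krt9 null minus that in WT paws, and all these contrasts share the same 4 groups. No member was called by edgeR and 3 were by DESeq2, with an unadjusted p under 0.05 for 17 of 34, against 7.60% of all genes. These 17 were 12 of 18 sterol genes, 3 of 11 fatty acid genes, Insig1 and Stard4. The median was 0.85 for the sterol arm and 0.31 for the fatty acid arm, beside -0.02 over all genes. Within run A the 2 medians were 0.38 and 0.26, and within run B 0.54 and 0.23. With a term for column run they were 0.86 and 0.31, but that term cannot take up a run difference that changes with day. The smallest p among sterol genes belonged to Mvd (log2 fold change 1.08, SE 0.240, adjusted p = 0.354) and Dhcr7 (log2 fold change 1.05, SE 0.239, adjusted p = 0.362). Among fatty acid genes it belonged to Acly (log2 fold change 0.69, SE 0.209, adjusted p = 0.514) and Scd2 (log2 fold change 0.57, SE 0.187, adjusted p = 0.542). In the edgeR fit of all 14 libraries the day effect was thus not shown to differ between genotypes for any member. Of the 14 edgeR fits that each left out 1 library, 1 called a member, that without P0 WT replicate 4. It called Mvd (adjusted p = 0.0328).

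The 5 regulators and carrier were called in no contrast by the edgeR fit of all 14 libraries, and with a term for column run Srebf2 was called between days in Krt9 null paws (log2 fold change 0.40, adjusted p = 0.0387). Srebf1, the gene of the SREBP directed mainly at fatty acid synthesis, stood at 95.9, 86.4, 96.3 and 64.2 CPM in P0 WT, 78.6 and 74.6 in P0 Krt9 null, 66.4, 80.9, 81.9, 80.2 and 65.6 in P3 WT, and 69.9, 95.1 and 63.5 in P3 Krt9 null paws. Srebf2 stood at 217, 206, 219 and 124 CPM in P0 WT, 169 and 112 in P0 Krt9 null, 142, 199, 201, 193 and 119 in P3 WT, and 173, 205 and 130.1 in P3 Krt9 null paws. In both genes the run B libraries were lower than the run A libraries of the same day. Scap, the escort of the SREBPs, stood at 68.4, 58.5, 68.2 and 45.3 CPM in P0 WT, 63.9 and 46.0 in P0 Krt9 null, 53.9, 57.6, 60.5, 56.4 and 42.7 in P3 WT, and 56.0, 57.8 and 45.0 in P3 Krt9 null paws, with the same order of runs. Insig1, an anchor of the SREBP complex and itself an SREBP target, stood at 41.5, 60.2, 45.5 and 30.3 CPM in P0 WT, 31.1 and 34.5 in P0 Krt9 null, 61.0, 49.4, 42.1, 39.0 and 43.8 in P3 WT, and 69.4, 48.6 and 48.5 in P3 Krt9 null paws. Its P3 Krt9 null libraries were all above its P0 Krt9 null libraries (log2 fold change 0.77, SE 0.251, adjusted p = 0.160). Stard4, a soluble sterol carrier, stood at 68.5, 69.6, 54.6 and 44.1 CPM in P0 WT, 66.7 and 41.1 in P0 Krt9 null, 77.1, 67.9, 67.3, 61.3 and 79.4 in P3 WT, and 133, 63.2 and 132 in P3 Krt9 null paws. P3 Krt9 null replicates 1 and 3 were far above all other libraries and replicate 2 was among the WT ones, with a P3 null-to-WT ratio of 1.60 (log2 fold change 0.68, SE 0.221, adjusted p = 0.694).

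Other genes of lipid metabolism were taken as 4 lists by function. Of 14 genes of sterol uptake, efflux and storage, 6 were called between days in WT paws, 3 higher and 3 lower, where 8.49% and 8.07% of all genes were. Mylip, whose product marks lipoprotein receptors for destruction, fell (log2 fold change -0.75, SE 0.156, adjusted p = 0.00660), as did the cholesterol exporter Abca1 (log2 fold change -0.66, SE 0.139, adjusted p = 0.00686). Erg28, a scaffold of sterol enzymes, rose (log2 fold change 0.41, SE 0.101, adjusted p = 0.0145). Of 22 other lipogenic enzymes 2 were called, both higher, a share near that of all genes: Elovl3, an elongase of sebaceous gland and brown fat (log2 fold change 4.20, SE 0.595, adjusted p = 0.00154), and Tecr, a reductase of the elongation cycle (log2 fold change 0.29, SE 0.0844, adjusted p = 0.0299). Of 13 genes of fatty acid oxidation 2 were called, both higher, against 8.49% of all genes. They were Decr1 (log2 fold change 0.68, SE 0.142, adjusted p = 0.00673) and Cpt1a, the carnitine transferase of mitochondrial entry (log2 fold change 0.74, SE 0.168, adjusted p = 0.00968). Of 8 genes of other isoprenoid products 1 was called, against the same 8.49%: Coq2 of ubiquinone synthesis rose (log2 fold change 0.34, SE 0.104, adjusted p = 0.0403). In Krt9 null paws 1 gene of the 4 lists was called, Abca1, lower on P3 (log2 fold change -0.89, SE 0.187, adjusted p = 0.0427), where 0.430% of all genes were called lower, and none was in the genotype contrasts or the interaction. Medians on P3 between genotypes were -0.09, 0.22, 0.13 and 0.01 for the 4 lists in this order.

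Markers of the cell types in a paw were summed as CPM. The counts of markers called between days in WT paws stand beside 8.49% of all genes called higher on P3 and 8.07% called lower. The 10 epithelial markers summed to 6147 to 11920 CPM in P0 WT, 6567 to 9173 in P0 Krt9 null, 6568 to 8332 in P3 WT and 6794 to 10782 in P3 Krt9 null paws. All 10 had lower values in Krt9 null than in WT paws on P0 and higher values on P3, with medians of -0.38 and 0.38. Between days in WT paws their median was -0.50, with 4 of 10 called lower. With the mean epithelial level of each library as a covariate, the sterol median of the genotype difference was -0.047 on P0 and 0.18 on P3, and that of the interaction 0.17. The same fit gave 0.47 for the sterol median of the day difference in WT. On P0 that epithelial level was 8.92, 8.77, 9.00 and 8.04 in WT and 8.47 and 8.21 in Krt9 null paws. On P3 it was 8.36, 8.15, 8.17, 7.99 and 8.34 in WT and 8.78, 8.11 and 8.67 in Krt9 null paws. As in the sterol arm, P3 Krt9 null replicates 1 and 3 lay above all P3 WT libraries and replicate 2 lay within their range. Run B lay below run A without overlap on P0 and above it without overlap on P3. The fit therefore cannot separate epithelial content from column run. The 8 sebaceous markers summed to 78.7 to 101 CPM in P0 WT and 128 to 214 in P3 WT paws, and to 117 to 124 and 132 to 201 in Krt9 null paws, with none at 0 in any library. That list holds Elovl3 and Soat1, which are also in the lists of lipid genes. Its medians over all libraries ran from 0.620 CPM (Dgat2l6) to 69.3 CPM (Plin2), so the sum weighs Plin2 most. The 9 adipocyte markers summed to 81.9 to 123 CPM in P0 WT and 104 to 214 in P3 WT paws, and to 110 to 133 and 110 to 179 in Krt9 null paws. Plin1, Cidec, Lep and Retn of that list were at 0 in 2, 1, 6 and 1 libraries. Fabp4 had the highest median of the list at 90.4 CPM, followed by Lipe at 16.0 CPM, so the sum weighs Fabp4 most. Between days in WT paws 5 of the 8 sebaceous and 5 of the 9 adipocyte markers were called higher, against 8.49% of all genes. Their medians were 1.23 and 2.39. The 7 skeletal muscle markers summed to 3874 to 11669 CPM in P0 WT and 1682 to 3112 in P3 WT paws, and to 3058 to 3631 and 1228 to 2705 in Krt9 null paws. In WT paws 4 of the 7 were called lower on P3 (median -1.19), and on both days all 7 had lower values in Krt9 null than in WT paws, none called. The 5 erythroid markers summed to 485 to 3339 CPM in P0 WT and 485 to 2361 in P3 WT paws, and to 629 to 775 and 1321 to 2609 in Krt9 null paws. Their day median was 2.00 in Krt9 null paws, where none was called and all 5 were higher without overlap, against 11.8% of all genes. In WT paws it was 0.33, and 2 were called higher. The 7 Schwann cell markers summed to 468 to 537 CPM in P0 WT, 524 to 532 in P0 Krt9 null, 592 to 871 in P3 WT and 563 to 889 in P3 Krt9 null paws, with 2 called higher on P3 in WT. The 6 fibroblast markers, of which 1 was called lower on P3 in WT paws, all had lower values in Krt9 null than in WT paws on P3 (median -0.18, none called). They summed to 39902 to 67031 CPM in P0 WT, 32974 to 47554 in P0 Krt9 null, 34553 to 79862 in P3 WT and 25339 to 65380.1 in P3 Krt9 null paws. None of the 5 cartilage markers was called. They summed to 299.7 to 2334 CPM in P0 WT, 226 to 1681 in P0 Krt9 null, 491 to 2941 in P3 WT and 758 to 1314 in P3 Krt9 null paws. Apart from the fit with the epithelial covariate, no fit included the level of a cell type. The part of any of these cell types in the values of the 34 genes was not tested.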

How the data were processed

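RNA of whole paws from 14 libraries was sequenced after ribosomal RNA depletion, per the labels' protocols. The authors deposited raw read counts per gene and library. GRCm39, STAR 2.7.10a, featureCounts, edgeR and limma are listed in the submitters' processing notes, with no role for each. Read filters and strand use are not given in the sources at hand. Symbols came from a reference list of gene names, which gave one to 52073 of 56691 gene IDs. Exon lengths and shared exon bases came from GENCODE vM21, which is not an annotation of GRCm39.

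Counts were filtered by filterByExpr, scaled by TMM and fitted with the quasi-likelihood test of edgeR 4.0.16 in R 4.3.3 (robust, all 14 libraries, 4 groups and labelled sex, 9 residual degrees of freedom). Benjamini-Hochberg adjustment ran over all 21619 genes of each of 5 contrasts, and an adjusted p under 0.05 was a call. CPM are counts scaled to a common total after TMM, log2 fold changes are fitted values and SE their standard error. Scripts were tested on simulated data.

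The members and lists were chosen with earlier results of these data known. Values per library are given for up to 3 called members of each arm and contrast with the smallest adjusted p, otherwise for the 2 with the smallest unadjusted p, and for the 5 regulators and carrier. In the wider lists, up to 3 called genes per list are named. Alternatives were DESeq2 1.42.0, limma 3.58.1 voom with litter within a day as a block, other scalings and filters, no sex term, only the groups compared, column run as a term or each run alone, an epithelial covariate, and leaving out each library. Replicate numbers do not pair samples. Only 2 pairs of libraries share a litter within a day.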

Additional observations from a re-analysis of the deposited data

Results flagged for a closer look

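Levels of the 34 genes and both arm scores were checked in the 2 WT groups for a single library far from the rest, and 5 of 72 groups held one. Chance alone does so in about 1 of 20. P0 WT replicate 4 was the low library in 4 of the 5. It stood at 27.8 CPM of Pmvk (group median 33.5), 48.5 CPM of Sqle (90.7), 124 CPM of Srebf2 (212) and 113 CPM of Fasn (198). Those 4 genes belong to both arms and to the regulators, and this library belongs to column run B and showed neither Xist nor Ddx3y. P3 WT replicate 3 was the high library for Mvk, at 44.2 CPM against a median of 37.5 CPM.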

How the results depend on the processing

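Groups of 2 to 5 libraries limit every comparison here. Of the alternatives for 26 single-gene values, 554 kept their direction and side of the threshold, 125 lost a call, 18 gained one and 1 changed sign. Only the values called in the main fit, 6 between days in WT and 8 in Krt9 null paws, could lose a call. The 554 also include values that were not called in either fit. Column run B alone leaves 1 residual degree of freedom, and its calls are to be read with that. For genotype on P0 no setting called a member. The change of sign was that of Lss (0.047 in run B alone), and the sterol median was -0.020 in run B alone and -0.047 with the epithelial covariate. For genotype on P3 DESeq2 called 1 member, the fit with no filter on low counts 7 and run B alone 24, and fits without 1 library called 0 to 5. The sterol median was 0.14 in run A alone and 0.18 with the covariate, and the fatty acid median ran from 0.052 to 0.28 without 1 library. For day in WT no filter called 10, run B alone 21, and fits without 1 library 3 to 8, and the sterol median was 0.61 in run B alone and 0.47 with the covariate. For day in Krt9 null paws DESeq2 called 22, no filter 24, no sex term 1, only the groups compared 0, column run as a term 18, run A alone 0 and run B alone 25, and fits without 1 library 0 to 20. The sterol median was 0.40 and 1.22 in runs A and B, and the fatty acid median 0.51 in run A and 0.47 to 0.91 without 1 library. For the interaction DESeq2 called 3, no filter 9, run B alone 12 and fits without 1 library 0 to 1. The sterol median was 0.38 and 0.54 in runs A and B and 0.17 with the covariate, and the fatty acid median ran from 0.19 to 0.51 without 1 library. Causes were not tested.

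As a replicate block, litter within a day (consensus correlation 0.555) gave 5 members called between days in WT paws, 7 in Krt9 null paws and 0 for the other contrasts, against 4, 8 and 0 by the same voom fit without it. Among members called in the main fit, the block ended the voom calls of Acat2 (adjusted p 0.0479 to 0.0704) and Acly (0.0433 to 0.0610) in Krt9 null paws. It added that of Elovl5 (0.0595 to 0.0445) in WT. The 7 called in Krt9 null paws with the block include a member that was not called there in the main fit. The 2 pairs of a shared litter had residual correlations of -0.155 and -0.216, opposite in sign to the consensus correlation, so whether litter pairs these libraries was not settled.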
